A study of Mus musculus with 6 samples.

Results

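The cell cycle and mitosis genes followed here are 56 genes of the division cycle, from the cyclins of G1 phase to the motors of the mitotic spindle, measured in RNA from WT and β-cateninΔ(ex3)/+ mouse livers. They were chosen by name as cyclins, cyclin-dependent kinases, their inhibitors, replication genes and mitosis genes, and all 56 had a row in the table of 31950 genes. Levels are given as FPKM, which scale fragment numbers to transcript length and library size, so they can be set side by side between genes. The 3 WT and 3 β-cateninΔ(ex3)/+ samples are whole livers of C57BL/6 mice labelled as 8 weeks old. In the β-cateninΔ(ex3)/+ mice 1 *Ctnnb1* allele lacks exon 3, the exon whose phosphorylated residues mark β-catenin for degradation. By the study's methods the exon was removed by a tamoxifen-inducible Cre driven from the albumin promoter, which is active in hepatocytes, and tamoxifen was given into the peritoneum on consecutive days. Whether the WT mice carried the Cre or received tamoxifen is not given in the sources used here, and neither is the sex of the mice.

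As background, D-type cyclins with Cdk4 and Cdk6 phosphorylate the retinoblastoma protein, which frees E2F factors to switch on genes for S phase. The Mcm helicase, loaded with Cdc6 and Cdt1, then licenses origins for replication. Cyclin B with Cdk1 drives entry into mitosis, and the anaphase-promoting complex, with Cdc20 as its activator, ends it. Most hepatocytes of an adult liver rest outside the cycle and re-enter it after injury, whereas hepatocytes and blood precursors of a young liver still divide. *Ccnd1* has been described as a target of β-catenin and TCF factors in cultured cells.

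Of the 56 genes, 52 had a mean FPKM of at least 0.5 and were tested within a limma fit over 13243 genes on the log2(FPKM + 1) scale, a scale that understates the change of genes at low levels. A gene is said to have risen or fallen where its Benjamini-Hochberg adjusted p over all genes tested was under 0.05. By this rule 29 of the 52 rose and 8 fell, while 15 did not pass. In bulk RNA, more dividing cells and more of these transcripts per cell cannot be told apart. In the background of all genes tested, 37.4% rose and 19.6% fell, against 55.8% and 15.4% of the cell cycle genes. At 2-fold or more, 12 of the 52 rose (23.1%), against a background of 8.17%. In the same limma fit 0 of the 52 fell by at least 2-fold, against 4.52%, and 8 fell by any amount at an unadjusted p under 0.05. *Cdk4* fell by at least 2-fold once the livers were scaled by median ratios or by quantiles. The 12 genes were *Ccnd1*, *Cdkn1a*, *Cdkn2c*, *Ccnb1*, *Plk1*, *Cdc20*, *Ube2c*, *Kif20a*, *Tpx2*, *Hmmr*, *Mdm2* and *Ccng1*. The median log2 fold change of the 52 genes was 0.36, beside 0.14 over all genes tested. Median-ratio scaling moved the median of all genes by -0.14 and left 8 of the 12 genes at 2-fold or more, with *Cdkn1a*, *Cdkn2c*, *Tpx2* and *Ube2c* between 0.877 and 0.997 on the log2 scale.

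Several properties of the libraries moved with genotype and bear on every comparison here. A list of 8 genes of the young liver, among them *Afp*, *H19* and *Igf2*, summed to between 3827 and 3895 FPKM in WT livers and between 4.28 and 4.69 FPKM in β-cateninΔ(ex3)/+ livers, although all 6 labels give the same age. *Xist* had 20.3 to 22.2 FPKM in WT livers and at most 0.0146 FPKM in β-cateninΔ(ex3)/+ livers, while the Y-linked *Eif2s3y* had at most 0.0169 FPKM in WT livers and 9.20 to 9.94 FPKM in β-cateninΔ(ex3)/+ livers. Genotype, expression linked to sex and the level of young-liver genes therefore cannot be told apart in these 6 livers. The Wnt target list rose in 9 of 10 genes and fell in 1, beside 37.4% and 19.6% of all genes tested. *Glul*, in that list, had 102 to 105 FPKM in WT and 619 to 633 FPKM in β-cateninΔ(ex3)/+ livers. Hepatocyte markers were abundant in all livers, with *Alb* at 24720 FPKM or more. *Ctnnb1* itself, counted per gene, had a log2 fold change of -0.097 (limma, adjusted p = 0.0935), a measure in which the loss of an exon cannot be read. Relative depth, estimated from the steps between low values, was 0.994 to 1.01 of the WT mean in WT livers and 0.69 to 0.795 in β-cateninΔ(ex3)/+ livers. The median coefficient of variation of the 52 genes between livers of a group was 9.95% in WT and 8.55% in β-cateninΔ(ex3)/+ livers.

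**Figure D1:**
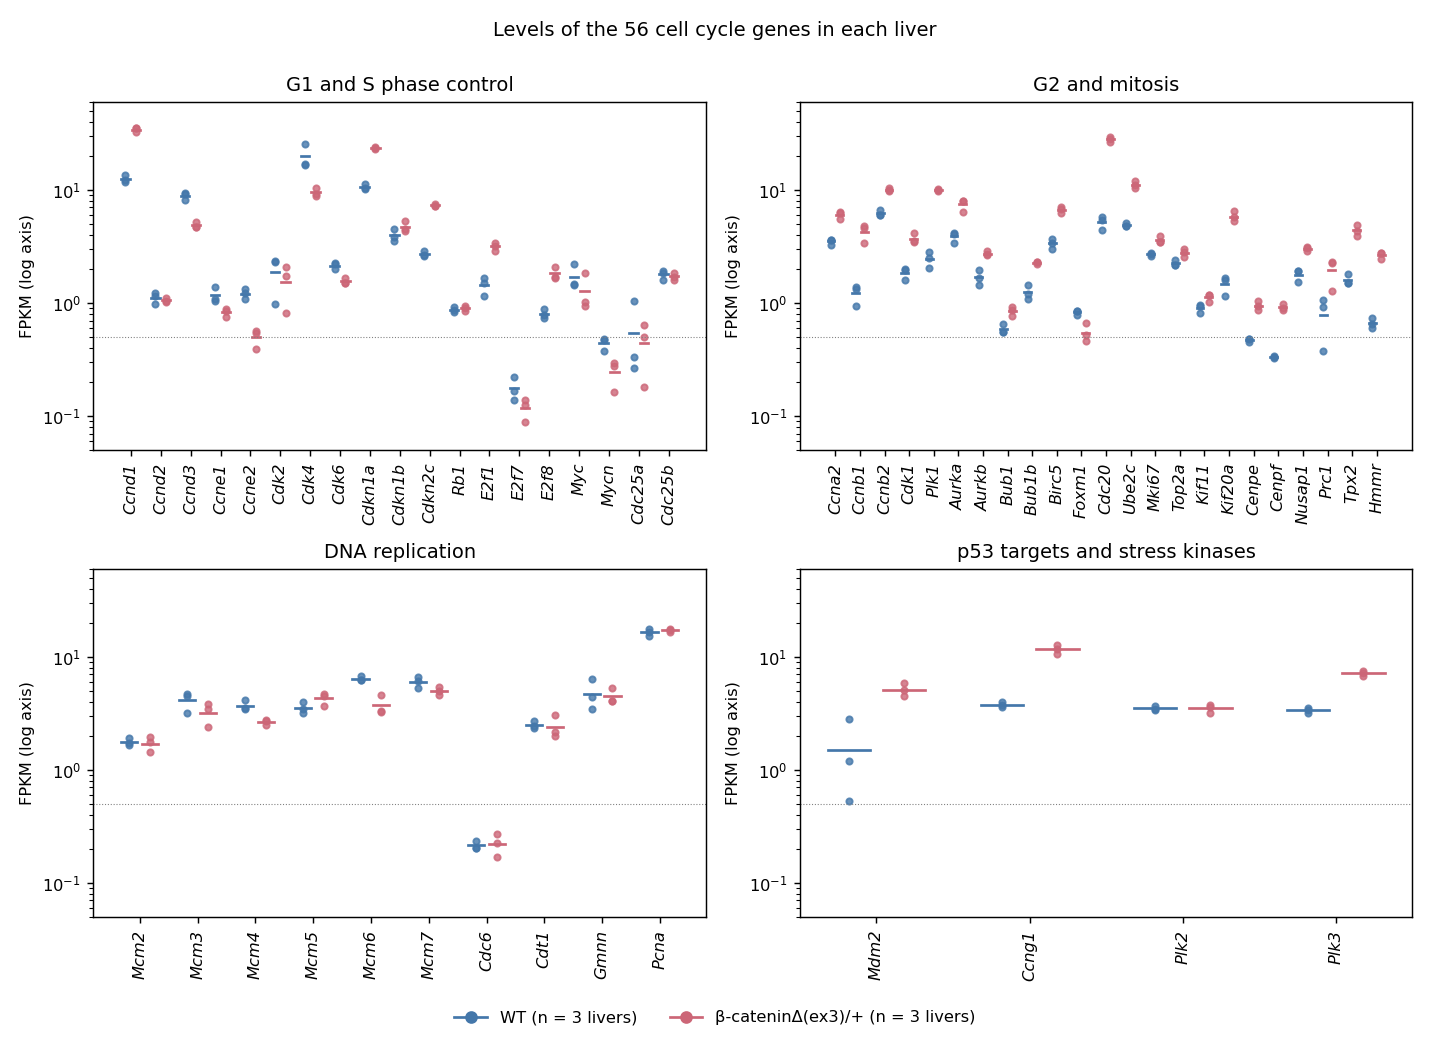
FPKM of the 56 cell cycle genes on a log axis, by role, with a point for each of the 3 WT (blue) and 3 β-cateninΔ(ex3)/+ (red) livers and a bar at the group mean; the dotted line is the minimum mean of 0.5 FPKM used for testing. The red points of most G2 and mitosis genes lie above the blue ones, with *Cdc20* highest, while replication genes such as *Pcna* overlap.

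The D-type cyclins, which receive growth signals in G1 phase, did not move together. *Ccnd1* (cyclin D1, ENSMUSG00000070348, chr7:144929931-144939925) had 12.3, 11.8 and 13.5 FPKM in WT and 35.0, 32.5 and 34.9 FPKM in β-cateninΔ(ex3)/+ livers. The β-cateninΔ(ex3)/+ livers were all above the WT livers, and the 3 values of each group lay close together. Its log2 fold change of 1.38 (SE 0.062, limma adjusted p = 1.10e-05) was the largest of the G1 and S phase genes tested. *LTO1*, on the opposite strand, overlaps 23.4% of the exon bases of *Ccnd1* and had 0.662 to 1.06 FPKM over the 6 livers. *Ccnd2* (cyclin D2) had 1.15, 0.977 and 1.21 FPKM in WT and 1.02, 1.12 and 1.04 FPKM in β-cateninΔ(ex3)/+ livers, values that overlapped between groups (log2 fold change -0.038, 95% interval -0.20 to 0.13, limma adjusted p = 0.663). *Ccnd3* (cyclin D3) went the other way, with 9.43, 8.12 and 9.11 FPKM in WT and 4.67, 5.22 and 4.68 FPKM in β-cateninΔ(ex3)/+ livers, and fell by 0.75 on the log2 scale (limma adjusted p = 0.000287). In β-cateninΔ(ex3)/+ livers *Ccnd1* was thus at 32.5 FPKM or more where *Ccnd3* was at 5.22 FPKM or less.

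The E-type cyclins, which act with Cdk2 at the start of S phase, both fell. *Ccne2* had 1.21, 1.33 and 1.09 FPKM in WT and 0.542, 0.393 and 0.566 FPKM in β-cateninΔ(ex3)/+ livers, with no overlap between groups (log2 fold change -0.56, limma adjusted p = 0.00143). *Ints8*, on the opposite strand, overlaps 17.4% of the exon bases of *Ccne2* and had 1.13 to 1.38 FPKM in WT and 1.58 to 2.16 FPKM in β-cateninΔ(ex3)/+ livers. *Ccne1* had 1.08, 1.38 and 1.05 FPKM in WT and 0.890, 0.749 and 0.855 FPKM in β-cateninΔ(ex3)/+ livers, which lay lower in each β-cateninΔ(ex3)/+ liver than in any WT liver (log2 fold change -0.24, limma adjusted p = 0.0440). This call on *Ccne1* was lost when any 1 of the 6 livers was left out, with limma adjusted p between 0.0549 and 0.116.

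Of the 3 kinases that partner the cyclins of G1 and S phase, 2 fell, beside 19.6% of all genes tested. *Cdk4* had 16.6, 25.6 and 17.0 FPKM in WT and 9.27, 10.5 and 8.91 FPKM in β-cateninΔ(ex3)/+ livers, and its 3 β-cateninΔ(ex3)/+ values were below all WT values (log2 fold change -0.95, SE 0.17, limma adjusted p = 0.00437). WT replicate 2 stood above the other WT livers, and without it the log2 fold change was -0.75 (limma adjusted p = 0.00113). Of the exon bases of *Cdk4*, 19.7% overlap those of *Tspan31* on the opposite strand, which had 71.3 to 85.8 FPKM in WT and 148 to 152 FPKM in β-cateninΔ(ex3)/+ livers, so the level of *Cdk4* depends on how reads of the overlap were assigned. *Cdk6* fell by 0.30 on the log2 scale, from 2.00 to 2.23 FPKM in WT to 1.50 to 1.67 FPKM in β-cateninΔ(ex3)/+ livers (limma adjusted p = 0.00758). *Cdk2* varied more than 2-fold within each group, from 0.98 to 2.33 FPKM in WT and from 0.822 to 2.07 FPKM in β-cateninΔ(ex3)/+ livers, and a difference was not detectable (log2 fold change -0.17, 95% interval -0.85 to 0.52, limma adjusted p = 0.641).

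Of the kinase inhibitors, 2 rose by at least 2-fold, beside 8.17% of all genes tested. *Cdkn1a* (p21, ENSMUSG00000023067, chr17:29090976-29100727), an inhibitor induced by p53 and other signals, had 11.2, 10.1 and 10.3 FPKM in WT and 23.9, 23.6 and 22.9 FPKM in β-cateninΔ(ex3)/+ livers. The groups were separate, with a log2 fold change of 1.09 (SE 0.051, limma adjusted p = 1.29e-05). *Cdkn2c* (p18, ENSMUSG00000028551, chr4:109660876-109667189), an inhibitor of Cdk4 and Cdk6, had 2.68, 2.90 and 2.58 FPKM in WT and 7.20, 7.42 and 7.21 FPKM in β-cateninΔ(ex3)/+ livers. It rose by a log2 fold change of 1.16 (SE 0.054, limma adjusted p = 1.26e-05), again with no overlap. *Cdkn1b* (p27) had 3.52 to 4.53 FPKM in WT and 4.35 to 5.32 FPKM in β-cateninΔ(ex3)/+ livers (limma adjusted p = 0.133). *Rb1*, the retinoblastoma gene, stayed between 0.829 and 0.939 FPKM over all 6 livers, and its log2 fold change of 0.018 turned to -0.073 with median-ratio scaling.

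Among the transcription factors of the cycle, the activator *E2f1* and the repressor *E2f8* rose. *E2f1* went from 1.16 to 1.65 FPKM in WT to 2.88 to 3.41 FPKM in β-cateninΔ(ex3)/+ livers (log2 fold change 0.77, limma adjusted p = 0.000962). *E2f8*, an atypical E2F that is itself switched on late in the cycle, went from 0.737 to 0.885 FPKM to 1.67 to 2.10 FPKM (log2 fold change 0.65, limma adjusted p = 0.000868). *Gm2788*, on the opposite strand, overlaps 11.2% of the exon bases of *E2f8* and rose as well, from at most 0.778 FPKM to at least 4.64 FPKM. *Myc* had 1.48, 2.19 and 1.43 FPKM in WT and 1.03, 0.939 and 1.85 FPKM in β-cateninΔ(ex3)/+ livers. The 2 groups overlapped, since β-cateninΔ(ex3)/+ replicate 3 lay above 2 of the WT livers (log2 fold change -0.26, limma adjusted p = 0.275). The repressor *E2f7* and *Mycn* were under the minimum for testing, at 0.088 to 0.223 FPKM and 0.163 to 0.485 FPKM over the 6 livers. Of the Cdc25 phosphatases, which remove inhibitory phosphates from the kinases, *Cdc25a* was under that minimum too and *Cdc25b* had 1.61 to 1.92 FPKM with overlapping groups (limma adjusted p = 0.674).

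Among genes of DNA replication, none of the 9 tested rose in the limma fit, against 37.4% of all genes tested, and 0 was higher at an unadjusted p under 0.05. Of the 10 listed, *Cdc6* was not tested, *Mcm4* and *Mcm6* fell and 7 did not pass, with a median log2 fold change of -0.051. The share that fell, 22.2% of the 9, was near the 19.6% of all genes tested. *Pcna*, the sliding clamp of the replication fork and the most abundant of the 10, had 17.8, 16.6 and 15.1 FPKM in WT and 16.6, 17.2 and 17.4 FPKM in β-cateninΔ(ex3)/+ livers. Its values overlapped, with a log2 fold change of 0.053 (95% interval -0.11 to 0.21, limma adjusted p = 0.517) that turned to -0.13 with median-ratio scaling and to -0.26 with quantile normalization, where it passed the test (limma adjusted p = 0.0255). *Mcm6*, a subunit of the replicative helicase, had 6.24, 6.73 and 6.19 FPKM in WT and 4.61, 3.26 and 3.28 FPKM in β-cateninΔ(ex3)/+ livers, all lower in the β-cateninΔ(ex3)/+ livers (log2 fold change -0.66, limma adjusted p = 0.00433). *Mcm4*, of the same helicase, had 3.44 to 4.12 FPKM in WT and 2.49 to 2.77 FPKM in β-cateninΔ(ex3)/+ livers (log2 fold change -0.36, limma adjusted p = 0.00762). *Mcm7* had 6.64, 5.28 and 6.12 FPKM in WT and 5.01, 4.59 and 5.44 FPKM in β-cateninΔ(ex3)/+ livers, with overlap (log2 fold change -0.22, limma adjusted p = 0.0904), and passed with median-ratio scaling (-0.38, limma adjusted p = 0.0133) and without WT replicate 2 (-0.30, limma adjusted p = 0.0322).

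The other replication genes also overlapped between groups. *Mcm2* had 1.67 to 1.93 FPKM in WT and 1.43 to 1.94 FPKM in β-cateninΔ(ex3)/+ livers, and *Mcm3* had 3.17 to 4.68 FPKM and 2.41 to 3.80 FPKM. *Mcm5* had 3.16 to 3.99 FPKM in WT and 3.65 to 4.67 FPKM in β-cateninΔ(ex3)/+ livers (limma adjusted p = 0.127), and passed without β-cateninΔ(ex3)/+ replicate 2 (log2 fold change 0.31, limma adjusted p = 0.0471). The licensing factor *Cdt1* and its inhibitor *Gmnn* (geminin) had limma adjusted p of 0.745 and 0.859. The loading factor *Cdc6* was under the minimum for testing, at 0.169 to 0.271 FPKM. The summed level of the 10 genes was 49.4 ± 3.59 FPKM in WT and 44.8 ± 0.611 FPKM in β-cateninΔ(ex3)/+ livers (SD, n = 3 each).

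Genes of G2 phase and mitosis rose nearly throughout. Of 23 listed and tested, 21 rose (91.3%, against 37.4% of all genes tested), *Foxm1* fell and *Kif11* did not pass. Their summed level was 50.5, 48.5 and 50.5 FPKM in WT and 119, 123 and 121 FPKM in β-cateninΔ(ex3)/+ livers, a ratio of 2.43 between the group means, and the median log2 fold change was 0.65. In 22 of the 23 genes every β-cateninΔ(ex3)/+ liver was above every WT liver, an order that 43% of all genes tested showed.

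Promoters were searched for motifs known from genes of S phase and of mitosis. The cell cycle genes homology region (CHR, TTTGAA) is bound by MuvB complexes, and the NF-Y box (CCAAT) often stands beside it. E2F sites (TTTNNCGC) are typical of genes of G1 and S phase, and TCF/LEF sites (CTTTGAT, which shares the letters TTTGA with a CHR but cannot match the same stretch) are bound by the partners of β-catenin. Both strands were searched from 250 bases before to 50 after each RefSeq start (GRCm38.p6), and 44 of the 56 genes had an entry. The sequences below show the 120 bases before the start, 5′ to 3′ on the strand of the gene with the matches to any of the 4 motifs in capitals, for 4 mitosis genes, 1 E2F gene and 1 replication gene that moved in different ways.
*Cdc20* (chr4:118437344-118437463, minus strand): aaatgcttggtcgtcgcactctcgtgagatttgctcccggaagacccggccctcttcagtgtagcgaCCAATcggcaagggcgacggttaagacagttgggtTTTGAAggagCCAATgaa
*Ube2c* (chr2:164769809-164769928, plus strand): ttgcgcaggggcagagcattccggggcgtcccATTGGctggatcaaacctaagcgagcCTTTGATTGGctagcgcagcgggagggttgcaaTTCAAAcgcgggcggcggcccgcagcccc
*Cdk1* (chr10:69352913-69353032, minus strand): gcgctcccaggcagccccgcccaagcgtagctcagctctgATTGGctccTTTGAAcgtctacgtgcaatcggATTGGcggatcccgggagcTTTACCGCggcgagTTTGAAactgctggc
*Kif11* (chr19:37376262-37376381, plus strand): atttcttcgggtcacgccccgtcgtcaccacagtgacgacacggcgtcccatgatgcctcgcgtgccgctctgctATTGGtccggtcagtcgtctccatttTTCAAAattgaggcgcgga
*E2f8* (chr7:48881597-48881716, minus strand): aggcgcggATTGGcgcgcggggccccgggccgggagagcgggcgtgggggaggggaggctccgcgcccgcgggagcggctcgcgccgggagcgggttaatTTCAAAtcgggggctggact
*Mcm6* (chr1:128359706-128359825, minus strand): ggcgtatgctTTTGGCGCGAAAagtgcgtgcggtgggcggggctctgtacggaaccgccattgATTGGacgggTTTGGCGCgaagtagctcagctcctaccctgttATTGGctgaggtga

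In *Cdc20* a CHR begins 18 bases before the start, between a pair of NF-Y boxes, and in *Ube2c* a CHR on the opposite strand begins 29 bases before it. The longest run of capitals in *Ube2c* is a TCF/LEF match, 62 bases before the start, that overlaps an NF-Y box. *Cdk1* holds CHR, NF-Y and E2F matches within the same 120 bases. *Kif11*, which did not pass the test, holds a CHR and an NF-Y box at distances of 19 and 45 bases, as *Cdc20* and *Ube2c* do at other distances. *E2f8* rose and carries a CHR 20 bases before its start, and *Mcm6*, which fell, carries E2F matches and NF-Y boxes in this stretch. Other genes with these motifs in their full windows moved otherwise. *Mcm2*, with a CHR, did not pass. Of other genes with an E2F match, *Mdm2* rose, *Cdk6* fell, and *Cdk2*, *Mcm3*, *Mcm5*, *Mcm7* and *Cdt1* did not pass.

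Over the full windows a CHR was found in 14 of 19 promoters of mitosis genes (73.7%), against 17.9% of all 32851 promoters, 1 of 9 promoters of replication genes (11.1%) and 2 of 17 of G1 and S phase genes (11.8%). An E2F match was found in 1 of 19 mitosis promoters (5.26%), against 5.17% of all promoters and 6 of 9 replication promoters (66.7%). G1 and S phase genes held one in 5 of 17 promoters (29.4%). The E2F contrast was not seen in the longer lists of further genes described below. There an E2F match was in 13 of 51 mitosis promoters (25.5%) and 12 of 46 replication promoters (26.1%). A CHR was in 35 of the 51 (68.6%) and 7 of the 46 (15.2%). Among the listed genes the NF-Y box was common to both groups, in 89.5% of mitosis and 77.8% of replication promoters, against 37.4% of all promoters. *Birc5* and *Nusap1* rose without a CHR or NF-Y match in their windows, and *Cenpe*, *Ccnb1* and *Bub1* rose with an NF-Y match alone. A TCF/LEF match was found in *Bub1b*, *Ube2c* and *Cdk4*, or 6.82% of the 44 genes, beside 4.29% of all genes with a promoter entry. *Ccnd1* and *Myc* had no RefSeq entry here. The mitosis shares cover 18 of the 23 genes, since *Ccna2*, *Aurkb*, *Foxm1*, *Kif20a* and *Tpx2* had no entry either. A match of letters is not a bound site, and binding was not measured in these data.

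**Figure D2:**
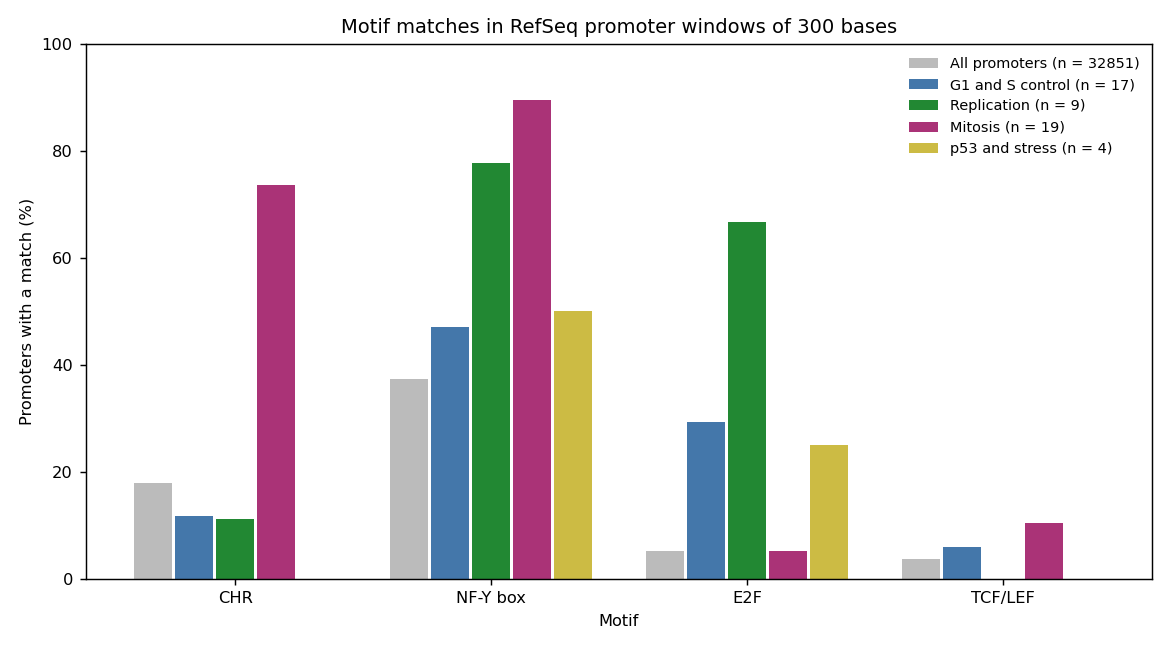
Share of RefSeq promoter windows with a match to each motif on either strand, in percent, for all promoters (grey) and the promoters of the 4 groups of listed genes; n is the number of promoters. The CHR bar is highest for mitosis genes (73.7%) and the E2F bar for replication genes (66.7%).

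The activator of the anaphase-promoting complex led the list. *Cdc20* (ENSMUSG00000006398, chr4:118432901-118437352) had 5.73, 5.39 and 4.44 FPKM in WT and 26.5, 29.1 and 28.3 FPKM in β-cateninΔ(ex3)/+ livers. Its β-cateninΔ(ex3)/+ mean was 5.39 times the WT mean, and the log2 fold change was 2.23 (SE 0.090, limma adjusted p = 6.89e-06), or 2.05 with median-ratio scaling. *Ube2c* (ENSMUSG00000001403, chr2:164769898-164778822), the ubiquitin-conjugating enzyme that works with the same complex, had 4.76, 4.76 and 5.10 FPKM in WT and 10.3, 12.0 and 11.1 FPKM in β-cateninΔ(ex3)/+ livers. The groups were separate, with a log2 fold change of 1.05 (SE 0.067, limma adjusted p = 4.78e-05), which was 0.996 without β-cateninΔ(ex3)/+ replicate 2.

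The kinases and cyclins of mitotic entry rose as well. *Ccnb1* (cyclin B1, ENSMUSG00000041431, chr13:100778650-100786570) had 0.947, 1.34 and 1.40 FPKM in WT and 3.42, 4.83 and 4.60 FPKM in β-cateninΔ(ex3)/+ livers (log2 fold change 1.24, SE 0.14, limma adjusted p = 0.000513). *Ccnb2* (cyclin B2) had 6.01, 5.97 and 6.60 FPKM in WT and 9.92, 10.3 and 9.78 FPKM in β-cateninΔ(ex3)/+ livers (log2 fold change 0.61, limma adjusted p = 0.000200). Their kinase *Cdk1* had 1.96, 1.61 and 2.01 FPKM in WT and 3.55, 4.16 and 3.43 FPKM in β-cateninΔ(ex3)/+ livers (log2 fold change 0.72, limma adjusted p = 0.000884). In each of these 3 genes the lowest β-cateninΔ(ex3)/+ liver was above the highest WT liver. *Ccna2* (cyclin A2) went from 3.28 to 3.64 FPKM in WT to 5.58 to 6.34 FPKM (log2 fold change 0.65, limma adjusted p = 0.000367).

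*Plk1* (ENSMUSG00000030867, chr7:122159439-122169873), the Polo-like kinase that promotes mitotic entry and spindle formation, had 2.47, 2.03 and 2.82 FPKM in WT and 9.89, 9.79 and 10.2 FPKM in β-cateninΔ(ex3)/+ livers. The 3 β-cateninΔ(ex3)/+ values lay close together and far above WT, with a log2 fold change of 1.68 (SE 0.091, limma adjusted p = 2.39e-05). The Aurora kinases *Aurka* and *Aurkb*, of the spindle poles and the chromosomal passenger complex, rose by log2 fold changes of 0.79 and 0.48. *Birc5* (survivin), a partner of Aurkb, rose by 0.81. The checkpoint kinase genes *Bub1b* and *Bub1* rose by 0.55 and 0.22, and the call on *Bub1* (limma adjusted p = 0.0274) was lost with median-ratio scaling (0.14, limma adjusted p = 0.114) and without WT replicate 1 or 2 or β-cateninΔ(ex3)/+ replicate 2 or 3, at adjusted p of 0.0665 to 0.0762.

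Of the 8 spindle and kinetochore genes, 3 also rose by at least 2-fold (37.5%), beside 8.17% of all genes tested. *Kif20a* (ENSMUSG00000003779, chr18:34624613-34633277), a kinesin of the central spindle, had 1.59, 1.65 and 1.16 FPKM in WT and 6.44, 5.74 and 5.25 FPKM in β-cateninΔ(ex3)/+ livers. The groups were separate (log2 fold change 1.47, SE 0.11, limma adjusted p = 8.75e-05). *Cdc23*, on the opposite strand, overlaps 29.3% of the exon bases of *Kif20a* and had 1.43 to 2.05 FPKM over the 6 livers. *Hmmr* (ENSMUSG00000020330, chr11:40701395-40733422), a receptor for hyaluronan that also binds spindle microtubules, had 0.599, 0.737 and 0.653 FPKM in WT and 2.76, 2.77 and 2.44 FPKM in β-cateninΔ(ex3)/+ livers (log2 fold change 1.14, SE 0.068, limma adjusted p = 3.67e-05). *Tpx2* (ENSMUSG00000027469, chr2:152847964-152895321), which activates Aurora A at the spindle, had 1.51, 1.80 and 1.50 FPKM in WT and 3.94, 4.37 and 4.91 FPKM in β-cateninΔ(ex3)/+ livers (log2 fold change 1.05, SE 0.089, limma adjusted p = 0.000160). Both showed no overlap between groups, and the value of *Tpx2* was 0.988 without β-cateninΔ(ex3)/+ replicate 3.

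The kinetochore genes *Cenpe* and *Cenpf* rose by log2 fold changes of 0.40 and 0.52, smaller only on a scale that compresses changes at low levels. *Cenpf* went from 0.327 to 0.341 FPKM in WT to 0.862 to 0.982 FPKM in β-cateninΔ(ex3)/+ livers. Its ratio of group means was 2.75, as was that of *Tpx2*, and that of *Cenpe* was 2.01. *Nusap1* and *Prc1*, which bundle microtubules, rose by 0.54 and 0.72. *Prc1* varied within WT from 0.375 to 1.07 FPKM, and its call (limma adjusted p = 0.0299) was lost without WT replicate 1 or 2 or β-cateninΔ(ex3)/+ replicate 2 or 3, at adjusted p of 0.056 to 0.0887. It was also lost with median-ratio scaling (0.62, limma adjusted p = 0.053). *Kif11*, the motor that pushes spindle poles apart, had 0.815 to 0.956 FPKM in WT and 1.02 to 1.19 FPKM in β-cateninΔ(ex3)/+ livers (log2 fold change 0.16, limma adjusted p = 0.0846).

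The genes most used to mark dividing cells rose less. *Mki67* had 2.60, 2.73 and 2.77 FPKM in WT and 3.88, 3.47 and 3.44 FPKM in β-cateninΔ(ex3)/+ livers, with all β-cateninΔ(ex3)/+ livers above WT (log2 fold change 0.31, limma adjusted p = 0.00588). *Top2a*, the topoisomerase that untangles chromosomes, had 2.38, 2.18 and 2.15 FPKM in WT and 3.03, 2.54 and 2.81 FPKM in β-cateninΔ(ex3)/+ livers (log2 fold change 0.23, limma adjusted p = 0.0340). Relative to the median of all genes these changes were smaller still. With median-ratio scaling *Mki67* had a log2 fold change of 0.17 (limma adjusted p = 0.0593) and *Top2a* one of 0.086 (limma adjusted p = 0.328). *Top2a* also lost its call without WT replicate 2 or 3 or β-cateninΔ(ex3)/+ replicate 1 or 3, at adjusted p of 0.0827 to 0.099. *Foxm1*, a transcription factor for G2 and mitosis genes, was the single one of the 23 that fell, with 0.847, 0.855 and 0.778 FPKM in WT and 0.461, 0.516 and 0.660 FPKM in β-cateninΔ(ex3)/+ livers (log2 fold change -0.24, limma adjusted p = 0.0281). Its call was lost with 1 liver left out, at adjusted p of 0.0547 to 0.0788, except without β-cateninΔ(ex3)/+ replicate 3 (0.0183).

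**Figure D3:**
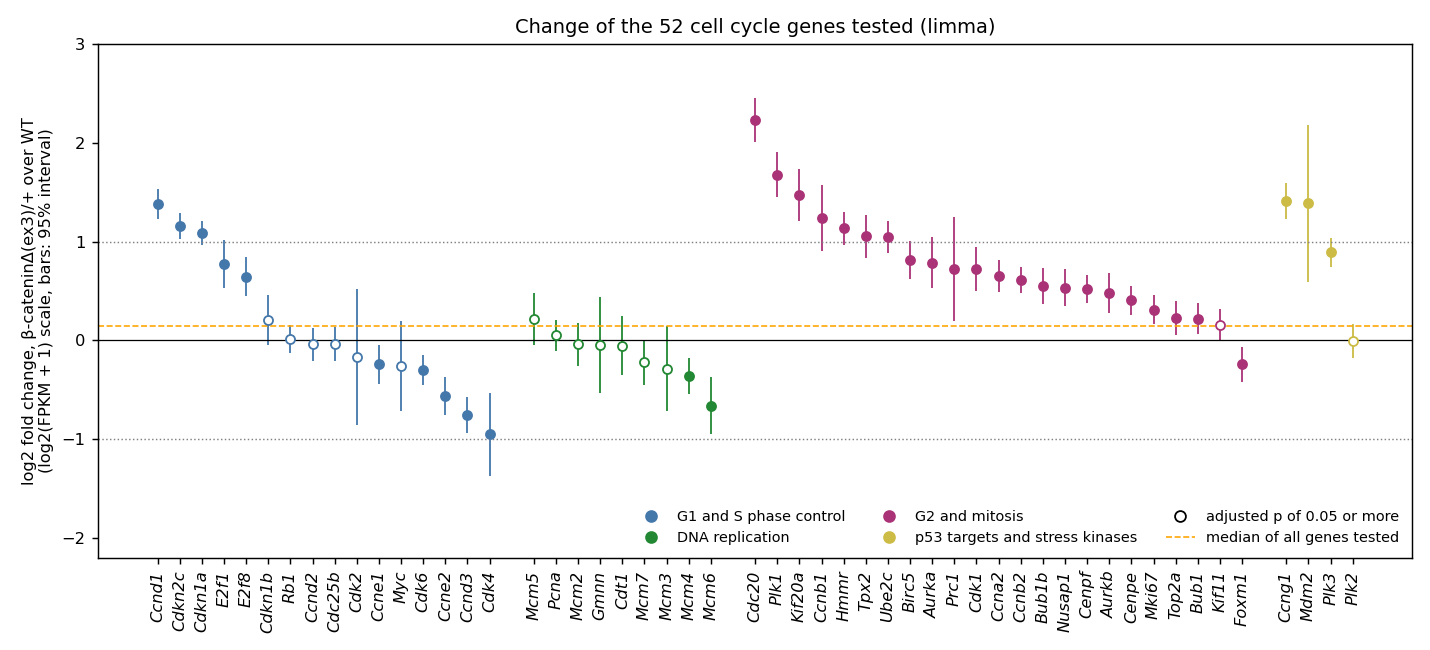
Log2 fold change of the 52 genes tested, β-cateninΔ(ex3)/+ over WT on the log2(FPKM + 1) scale, with 95% intervals from limma; filled points had an adjusted p under 0.05, dotted lines mark 2-fold and the dashed line the median of all genes tested. G2 and mitosis genes run from *Cdc20* at 2.23 to *Foxm1* at -0.24, while replication genes run from 0.22 to -0.66.

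Of the listed p53 targets and stress kinases, 3 of 4 rose, beside 37.4% of all genes tested. *Ccng1* (cyclin G1, ENSMUSG00000020326, chr11:40748552-40755311), a p53 target, had 3.60, 3.74 and 3.98 FPKM in WT and 12.8, 11.7 and 10.7 FPKM in β-cateninΔ(ex3)/+ livers. The groups were separate, with a log2 fold change of 1.41 (SE 0.075, limma adjusted p = 2.13e-05). *Mdm2* (ENSMUSG00000020184, chr10:117688875-117710758), which encodes the ubiquitin ligase that degrades p53 and is itself switched on by p53, had 1.19, 0.529 and 2.79 FPKM in WT and 5.05, 5.85 and 4.50 FPKM in β-cateninΔ(ex3)/+ livers. The WT replicates spread widely, and all lay below the β-cateninΔ(ex3)/+ livers (log2 fold change 1.39, SE 0.32, limma adjusted p = 0.0123). *Plk3*, a Polo-like kinase of the stress response, had 3.19, 3.35 and 3.55 FPKM in WT and 7.44, 7.16 and 6.74 FPKM in β-cateninΔ(ex3)/+ livers (log2 fold change 0.89, limma adjusted p = 5.77e-05). *Plk2*, of the same family, had 3.67, 3.43 and 3.40 FPKM in WT and 3.73, 3.15 and 3.58 FPKM in β-cateninΔ(ex3)/+ livers, and overlapped between groups (log2 fold change -0.0057, 95% interval -0.18 to 0.16, limma adjusted p = 0.951).

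Further genes of the same processes, listed for their known roles but with earlier results of these data known, showed a similar division. They were measured in the same livers, so they are not an independent check of that division. Of 45 further genes of mitosis and cytokinesis tested, out of 54 listed, 37 rose (82.2%), *Spc25* fell and 7 did not pass, with a median log2 fold change of 0.50. The largest rises were those of *Cdca3*, a trigger of mitotic entry (log2 fold change 1.37), *Ckap2l*, a spindle protein (1.37), and *Nek2*, a centrosomal kinase (1.24), with limma adjusted p of 2.6e-05, 4.19e-06 and 1.22e-05. *Spc25*, a subunit of the Ndc80 complex of kinetochores, had 7.84, 8.67 and 7.64 FPKM in WT and 3.22, 2.70 and 2.78 FPKM in β-cateninΔ(ex3)/+ livers (log2 fold change -1.22, limma adjusted p = 4.45e-05). Of 37 further genes of replication and S phase tested, out of 44 listed, 5 rose (13.5%), 9 fell (24.3%) and 23 did not pass, with a median of -0.066. Over all genes tested 37.4% rose and 19.6% fell. With median-ratio scaling 2 of the 37 rose and 16 fell.

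Of 35 further G1 and control genes tested, out of 42 listed, 8 rose and 8 fell (22.9% each), beside 37.4% and 19.6% of all genes tested. *Cdkn1c* (p57), an inhibitor of cyclin-dependent kinases encoded in the same imprinted region as *H19* and *Igf2*, had 30.5, 27.1 and 29.3 FPKM in WT and 2.74, 3.08 and 3.17 FPKM in β-cateninΔ(ex3)/+ livers. It fell by 2.91 on the log2 scale (limma adjusted p = 6.67e-07), in the opposite direction to the listed inhibitors *Cdkn1a* and *Cdkn2c*. *Mybl2*, which encodes B-Myb, a factor that works with the MuvB complex on mitotic promoters, fell by 1.3 on the log2 scale (limma adjusted p = 3.46e-05), and the antiproliferative gene *Btg1* fell by 1.23 (limma adjusted p = 4.66e-06). *Mad2l2*, a subunit of a translesion polymerase that also restrains the anaphase-promoting complex, rose by 1.41 (limma adjusted p = 0.000345).

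Of 22 further p53 targets tested, out of 25 listed, 14 rose (63.6%), 3 fell (13.6%) and 5 did not pass, with a median log2 fold change of 0.46. The shares over all genes tested were 37.4% and 19.6%. *Gdf15*, a secreted stress cytokine, had 1.96, 1.71 and 2.09 FPKM in WT and 109, 105 and 109 FPKM in β-cateninΔ(ex3)/+ livers (log2 fold change 5.22, limma adjusted p = 4.43e-08). *Bbc3* (Puma), which promotes apoptosis, and *Phlda3*, an inhibitor of Akt, rose by 1.75 and 1.39 (limma adjusted p = 1.23e-05 and 0.000107). *Trp53* itself, counted in this list, had 6.41 to 7.23 FPKM in WT and 6.56 to 7.32 FPKM in β-cateninΔ(ex3)/+ livers, which overlapped (limma adjusted p = 0.949).

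**Figure D4:**
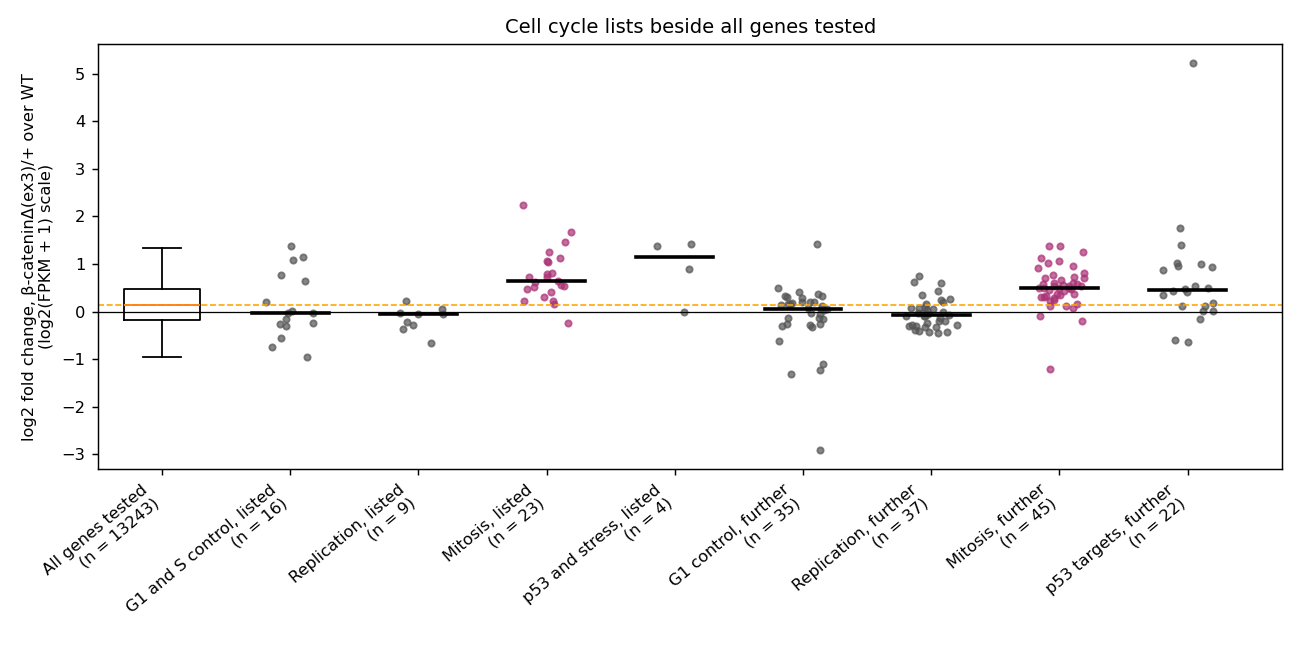
Log2 fold change, β-cateninΔ(ex3)/+ over WT on the log2(FPKM + 1) scale, for the 4 groups of listed genes and the 4 further lists, 1 point per gene tested with a bar at the median, beside a box of all 13243 genes tested (quartiles, with whiskers at the percentiles 5 and 95). The medians of both mitosis lists, 0.65 and 0.50, lie above the dashed line at the median of all genes, and those of both replication lists, -0.051 and -0.066, lie below it.

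Since cells of the blood lineage divide in a young liver, markers of other cell types were read beside the cell cycle genes. Of all genes tested, 43% were higher and 23% lower in every β-cateninΔ(ex3)/+ liver than in any WT liver. Unlike these shares, the marker counts include genes under the minimum for testing. Among tested genes, 8 of 9 erythroid and 8 of 9 neutrophil and myeloid precursor markers were lower in this way. Erythroid markers were lower in every β-cateninΔ(ex3)/+ liver for 10 of 11 genes, with a sum of 3308 to 3651 FPKM in WT and 1811 to 1873 FPKM in β-cateninΔ(ex3)/+ livers, and *Rhd* was at 0 in every β-cateninΔ(ex3)/+ liver. Neutrophil and myeloid precursor markers were lower for 9 of 10 genes, with sums of 345 to 369 FPKM and 49.0 to 53.6 FPKM and *S100a9* as the most abundant. Kupffer cell markers were higher for 6 of 7 genes, with sums of 206 to 211 FPKM and 473 to 485 FPKM, led by *Cd5l*, while *Marco* was lower.

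The remaining lists moved too, and their counts are to be read beside the same 43% and 23% of all genes tested. These counts also include genes under the minimum for testing. Among tested genes, 4 of 5 B and plasma cell markers were lower and 1 higher, and 5 of 6 T and NK cell markers were higher and 0 lower. B and plasma cell markers summed to 24.5 to 26.9 FPKM in WT and 6.58 to 8.26 FPKM in β-cateninΔ(ex3)/+ livers, led by *Cd79b*, with 6 of 7 genes lower in every β-cateninΔ(ex3)/+ liver and *Jchain*, of plasma cells, higher (log2 fold change 1.96, limma adjusted p = 3.39e-05). T and NK cell markers, led by *Trbc2*, summed to 9.17 to 11.4 FPKM and 17.1 to 17.2 FPKM, with 6 of 8 genes higher and 1 lower. Endothelial markers, led by *Clec4g*, and stellate cell markers, led by *Col3a1*, were lower for 7 of 7 genes each, from 87.7 to 90.3 FPKM to 58.4 to 59.8 FPKM and from 86.8 to 89.5 FPKM to 25.7 to 28.7 FPKM. Cholangiocyte markers went from 39.6 to 43.1 FPKM to 18.5 to 19.3 FPKM, a sum carried by *Spp1*, with 2 of 5 genes lower and 1 higher in every β-cateninΔ(ex3)/+ liver, while 2 of the 4 tested did not pass. The 8 hepatocyte markers went from 69330 to 72570 FPKM to 34530 to 34780 FPKM, with *Alb* and *Apoa1* at the top, 4 of the 8 higher and 3 lower in every β-cateninΔ(ex3)/+ liver. The rise of the mitosis genes and the lack of a rise of the replication genes therefore ran beside lower erythroid and neutrophil and higher Kupffer cell markers, whose part in the result was not tested.

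**Figure D5:**
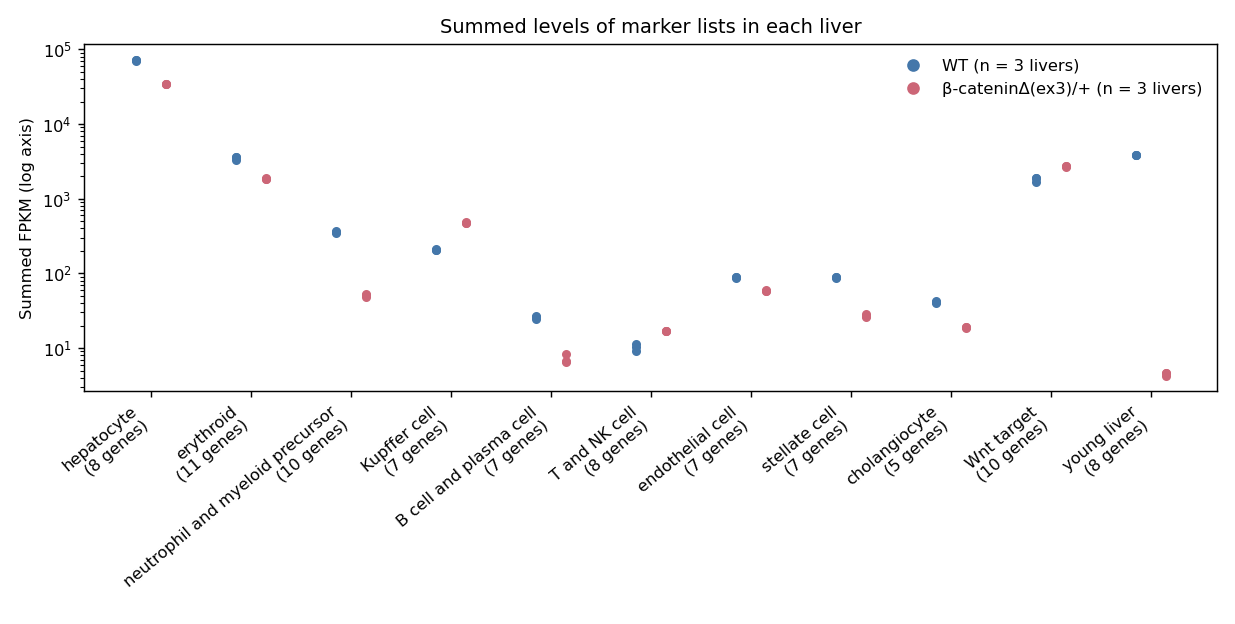
Summed FPKM of each marker list on a log axis, with 1 point for each of the 3 WT (blue) and 3 β-cateninΔ(ex3)/+ (red) livers; points of a group often lie on each other. The young-liver list falls from at least 3827 FPKM in WT to at most 4.69 FPKM, and the Kupffer cell and Wnt target lists are among those that are higher in β-cateninΔ(ex3)/+ livers.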

How the data were processed

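The authors deposited 1 table of FPKM for 31950 genes, with 3 WT and 3 β-cateninΔ(ex3)/+ livers as columns, 1 library per liver. Poly(A) RNA was made into dUTP-stranded libraries and sequenced on a NovaSeq instrument. The submitters' processing notes name cutadapt 1.9, HISAT2 2.0.4, StringTie 1.3.4d, edgeR and DESeq2. The genome build and the strand setting of the counting are not given in the sources used here, and the coordinates printed are those of the table, of which 28874 equal GENCODE M21 (GRCm38).

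FPKM are not counts, so no count test was run and no counting interval is given. From the deposited FPKM, log2(FPKM + 1) of the 13243 genes with a mean of at least 0.5 was fitted with limma 3.58.1 (R 4.3.3, eBayes with an intensity trend), WT against β-cateninΔ(ex3)/+, with Benjamini-Hochberg adjustment over all of them. The p-values measure the spread between 3 livers a group. Python 3.11.15 was used for the rest. The 56 genes and all lists were chosen with earlier results of these data known. Named are all 56 genes, with the value in every liver for those past both thresholds and for set cyclins, kinases, proliferation markers and the 2 most abundant of each group, the top 3 risers and fallers of each further list past both thresholds and the most abundant gene of each marker list. Single markers (*Afp*, *Igf2*, *Glul*, *Rhd*, *Marco*, *Jchain*, *Xist*, *Eif2s3y*), *Trp53* and overlapping neighbours, outside this rule, were named after their values were seen. Alternatives were median-ratio scaling, quantile normalization, a pseudocount of 0.1, a mean of at least 1, no filter, no trend, a replicate block and leaving out each liver.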

Additional observations from a re-analysis of the deposited data

How the results depend on the processing

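Of 670 comparisons of a gene with an alternative setting, 612 kept direction and side of the threshold, 39 lost the call, 5 gained it and 14 changed sign, of which 1 also gained a call (*Pcna*, quantile normalization); the cause was not tested. Genes that rose numbered 25 to 29 over all settings (29 as reported), and those at 2-fold or more 8 with median-ratio scaling or quantile normalization, 17 at a pseudocount of 0.1 and 11 to 12 with 1 liver left out. Genes lower by 2-fold numbered 1 with median-ratio scaling, 1 with quantile normalization, 2 at a pseudocount of 0.1 and 0 to 1 with 1 liver left out. The median log2 fold change of the cell cycle genes was 0.25 with median-ratio scaling, 0.24 with quantile normalization, 0.57 at a pseudocount of 0.1, 0.51 at a mean FPKM of at least 1 and 0.22 without a filter. Over all genes, the 1082 higher and 598 lower calls at 2-fold became 851 and 751 with median-ratio scaling, 797 and 812 with quantile normalization and 1706 and 999 at a pseudocount of 0.1.

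Among mitosis genes the count that fell (1, *Foxm1*) was 0 with a minimum mean of 1 FPKM, 0 without a filter and 0 to 1 with 1 liver left out. Among replication genes 4 fell with quantile normalization, and 0 to 1 rose with 1 liver left out (*Mcm5*, without β-cateninΔ(ex3)/+ replicate 2). Of the further mitosis genes 3 rose by 2-fold with median-ratio scaling, 3 with quantile normalization and 17 at a pseudocount of 0.1 (6 as reported), and 2 fell with either scaling. Of the further replication genes 2 rose and 16 fell with either scaling (5 and 9 as reported); with 1 liver left out 3 to 6 rose (3 without β-cateninΔ(ex3)/+ replicate 2) and 0 to 1 rose by 2-fold (1 without WT replicate 2). Of the further G1 genes 4 rose with either scaling and 13 fell with quantile normalization (8 and 8 as reported). Of the further p53 targets 10 rose by 2-fold at a pseudocount of 0.1 (4 as reported), and 1 to 2 fell with 1 liver left out (1 without WT replicate 1 or 3 or β-cateninΔ(ex3)/+ replicate 2).

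The log2 fold change of *Rb1* turned to -0.073 with median-ratio scaling and -0.061 with quantile normalization, and that of *Pcna* to -0.13 and -0.26. With 1 liver left out, *Cdk2* ranged from -0.41 to 0.058, *Mcm2* from -0.10 to 0.037, *Cdt1* from -0.18 to 0.035, *Gmnn* from -0.21 to 0.15, *Pcna* from -0.0040 to 0.11 and *Plk2* from -0.045 to 0.050. As reported, these genes missed the threshold.

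The replicate numbers do not pair the livers, which are of different mice, and same-numbered livers correlated by 0.027, 0.021 and -0.0054 in their deviations. With the replicate number as a block, 27 genes rose and 7 fell, 12 rose by 2-fold, 0 mitosis genes fell, *Mcm3* passed, *Ccne1*, *Foxm1*, *Bub1* and *Prc1* lost their calls and 5 further G1 genes rose. FPKM carry no counts, so what depth could not show is unknown for genes at low levels, and the β-cateninΔ(ex3)/+ libraries were the shallower ones by the step estimate.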
